A study of Danio rerio with 6 samples.

Results

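Genes that cells need to copy their DNA and to divide were followed on 6 arrays of whole zebrafish larvae. The gene list held 37 genes, and a gene was measured where a transcript cluster, the probe set that the array reports as 1 value, carried its symbol alone. This gave 33 genes of the 19260 with such a transcript cluster, each with a single one. They were 15 replication genes, 17 mitosis genes and the checkpoint kinase gene chek1. The genes mcm2, mki67 and tpx2 were not analysed here, and mcm5 was left out because its transcript cluster is assigned to hmox1a as well.

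The larvae carried the Tg (mbp:nfsB-egfp) transgene, which makes the bacterial enzyme nitroreductase and EGFP under the promoter of mbp, the myelin basic protein gene, so that myelinating cells turn metronidazole into a toxic product. Treated larvae were kept in the dark in 5 mM metronidazole from 5 dpf for 5 days. The study's methods do not say whether control larvae were kept in the dark as well. Treated and control larvae were collected at 10 dpf. The study's methods give 0.2% DMSO as the solvent of the drug. They name 0.2% DMSO alone for adult controls and no vehicle for control larvae. There were 3 arrays per group, each with the pooled RNA of 5 larvae, and RNA was extracted from 3 batches of larvae. Arrays of both groups with the same replicate number were treated as 1 batch. All larvae carried the transgene, so an effect of the drug itself and an effect of the loss of nitroreductase-positive cells cannot be told apart. If the groups differed in light, that effect cannot be told apart from these either. The log2 signal of the myelin gene mbpa was 8.69 ± 0.08 in control and 8.55 ± 0.24 with metronidazole (mean ± SD of 3 arrays each). Its difference was -0.14 (standard error 0.16, limma adjusted p = 0.963). The second mbp gene, mbpb, had a difference of 0.03.

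Before S phase, the origin recognition complex, Cdc6 and Cdt1 load the MCM helicase onto DNA. Cdc45 and the GINS complex then activate it, and polymerases with the sliding clamp PCNA copy both strands. In mitosis, Cdk1 with A and B cyclins drives the cell into division, motor proteins build the spindle, and a checkpoint holds back Cdc20 until all chromosomes are attached. In mammals, E2F factors switch on the replication genes, while the mitosis genes peak later in the cycle under MuvB, B-MYB and FOXM1. In zebrafish larvae, dividing cells are found at the margin of the retina, along the brain ventricles and in the gut lining, among other places. An array of whole larvae sums over all of them, and fewer dividing cells and less of a transcript per cell cannot be told apart.

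The deposited values were log2 signals that had already been brought to a common scale, with array medians between 5.10 and 5.14 and highest values between 13.7 and 13.8. Levels are not compared between genes here, because probes differ in brightness. Of the 33 genes, 10 replication and 8 mitosis genes were brighter than the median transcript cluster, and differences of dimmer genes may be compressed by background. Differences are metronidazole minus control on the log2 scale, fitted with limma over all 75212 transcript clusters and adjusted by the method of Benjamini and Hochberg.

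None of the 33 genes passed the test, but most had differences below 0, with the lower median in the replication genes. The gap between these medians was not tested, and it came mainly from the third batch. Differences were below 0 for 29 of 33 genes, against 43.3% of all transcript clusters and 46.5% of all genes. The median difference was -0.38 for the replication genes and -0.10 for the mitosis genes, against 0.03 for all transcript clusters. Of the replication genes 14 of 15 were below 0, and of the mitosis genes 14 of 17. The count over the 33 genes was 16 without control 3 and 20 without metronidazole 1, and that of the mitosis genes was 5 of 17 without either of these arrays. With array weights in limma the counts were 23 of 33 and 8 of 17, whereas without control 1 they were 32 of 33 and 17 of 17. At an adjusted p under 0.05 limma called 0 of the 33 genes lower and 0 higher, and the background was 0% in both directions. The lowest adjusted p among them was 0.952. An unadjusted p under 0.05 was likewise reached by 0 genes in either direction, against 2.57% lower and 2.22% higher among all transcript clusters and 4.27% and 1.68% among all genes, and the methods' t-test gave 0 as well. The arrays of the groups overlapped for every one of the 33 genes, while 4.15% of all transcript clusters had all metronidazole arrays below all control arrays and 5.80% the reverse (5.73% and 5.14% of all genes). None differed by 2-fold or more, against 1.10% of all transcript clusters that were 2-fold lower and 0.327% that were 2-fold higher.

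**Figure D1:**
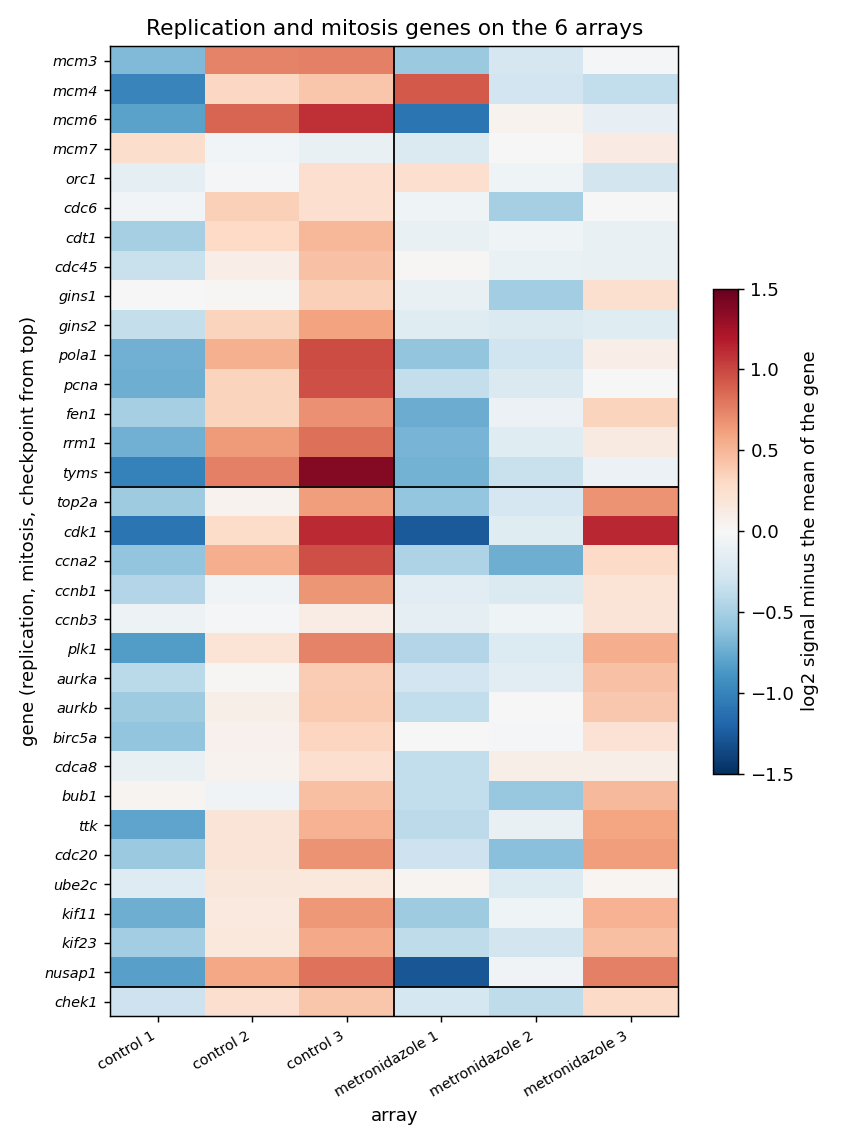
Log2 signal of each of the 33 genes on each array (columns) minus the mean of that gene over the 6 arrays, as colour, with replication genes on top, mitosis genes below them and chek1 last. Control 1 is blue and control 3 red for nearly all genes, and metronidazole 3 is red mainly for the mitosis genes.

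The arrays within a group differed more than the groups did. Control 1 was the lowest of the control arrays for 31 of the 33 genes, and control 3 the highest for 30. Both held for 29 genes (87.9%), against 17.2% of all transcript clusters. The exceptions in control were mcm7 and bub1, whose lowest array was another, and mcm7, cdc6 and ube2c, whose highest array was not control 3. Among the metronidazole arrays, replicate 1 was the lowest for 20 genes and replicate 3 the highest for 26, against 37.9% and 29.7% of all transcript clusters. The same order in both groups, with replicate 1 lowest and replicate 3 highest, was found for 16 of 33 genes, against 3.56% of all transcript clusters. The median SD between the control arrays was 0.56 over the 33 genes and 0.20 over all transcript clusters. For the metronidazole arrays these values were 0.38 and 0.22. The widest range between the control arrays was that of tyms (2.38) and the widest between the metronidazole arrays that of cdk1 (2.40).

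The replication and the mitosis genes moved together across the control arrays and apart on metronidazole 3. After each gene was centred on its mean, the median of the replication genes was -0.50, 0.33 and 0.61 in control 1, 2 and 3, and -0.22, -0.21 and -0.02 in metronidazole 1, 2 and 3. The median of the mitosis genes was -0.53, 0.15 and 0.56 in the control arrays and -0.37, -0.18 and 0.45 in the metronidazole arrays. Thus the median of control 1 was below that of every metronidazole array in both groups of genes. From control 1 to control 3 the median step was 1.18 for the replication genes and 1.10 for the mitosis genes. From metronidazole 1 to metronidazole 3 it was 0.35 for the replication genes and 0.82 for the mitosis genes. The gap between the medians of the replication and the mitosis genes was 0.03, 0.18 and 0.04 in the control arrays and 0.15, -0.03 and -0.47 in the metronidazole arrays.

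**Figure D2:**
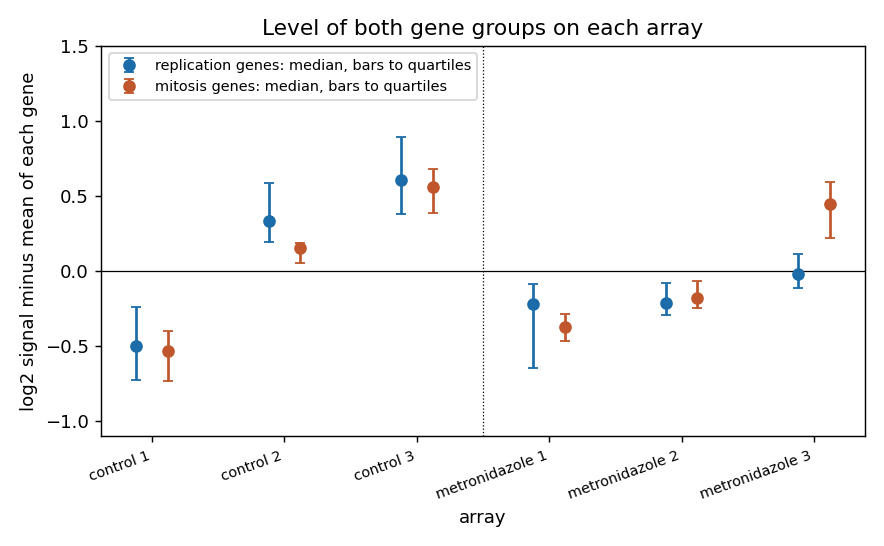
Median of the 15 replication genes and of the 17 mitosis genes on each array, as log2 signal minus the mean of each gene, with bars to the quartiles over genes. Both medians are lowest on control 1 and highest on control 3, and on metronidazole 3 the mitosis median is 0.45 while the replication median is -0.02.

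Within the batches, the replication genes were lower with metronidazole in the second and the third batch and not in the first. Their median difference was 0.12, -0.55 and -0.69 in batch 1, 2 and 3, and 5, 14 and 14 of the 15 genes were lower. The mitosis genes had median differences of 0.15, -0.30 and -0.06, with 6, 16 and 10 of the 17 genes lower. In the third batch, where the lists parted most, the differences ran from -1.46 to 0.24 for the replication genes and from -0.68 to 0.08 for the mitosis genes. Over all transcript clusters the median difference was -0.01, 0.04 and 0.06 in the 3 batches, and 51.6%, 45.4% and 42.7% were lower. Control 1, which enters only the first batch, also set how far the groups overlapped. It was the lowest control array for 31 of the 33 genes. Leaving out control 1 could only part the groups of these genes further downwards, so the counts without it are not an independent result. Without it, 11 replication genes and 2 mitosis genes no longer overlapped between the groups, all lower, against 10.6% of all transcript clusters that were lower in this way and 16.9% that were higher. Without metronidazole 3 these were cdc6, gins1 and bub1, all lower, against 7.64% lower and 10.8% higher. Without control 2, control 3, metronidazole 1 or metronidazole 2 there were 0 in either direction, against 6.59%, 8.01%, 8.12% and 9.75% lower and 9.51%, 9.00%, 12.3% and 12.7% higher. At an unadjusted p under 0.05 and without control 1, limma gave 8 replication genes (mcm3, mcm6, cdt1, gins2, pola1, pcna, rrm1 and tyms) and 1 mitosis gene (ccna2), all lower, where the background was 4.36% lower and 4.15% higher. None passed the adjustment (lowest limma adjusted p = 0.401). The lower genes numbered 0 without control 2, control 3, metronidazole 1 or metronidazole 2, where the background was 1.57%, 2.01%, 2.01% and 3.56%. Without metronidazole 3 there was 1, bub1, where it was 2.19%. With the batch as a term, limma gave 1 gene at an unadjusted p under 0.05, mcm6, which was lower, against 4.13% of all transcript clusters lower and 2.94% higher, and 0 at the adjusted p (lowest 0.605).

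The MCM helicase genes shared a pattern only in part. For mcm3, mcm4 and mcm6 the signal rose from control 1 to control 3 and was lower with metronidazole in batch 2 and 3. For mcm7 neither held. Values of 4 of the 6 subunit genes were at hand. The gene mcm6 was at 6.02, 7.69 and 7.91 in control 1, 2 and 3 and at 5.73, 6.87 and 6.70 in metronidazole 1, 2 and 3. It was lower with metronidazole in each batch, by 0.29, 0.82 and 1.20 on the log2 scale, yet control 1 lay below metronidazole 2 and 3. Its difference of -0.77 was the largest downwards of all 33 genes (standard error 0.55, 95% interval -2.08 to 0.54). The gene mcm3 was at 4.67, 6.08 and 6.09 in control and at 4.78, 5.08 and 5.32 in metronidazole-treated larvae. All metronidazole arrays lay below control 2 and 3 and above control 1, with a difference of -0.55 (standard error 0.40).

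The gene mcm4 was at 6.22, 7.53 and 7.63 in control and at 8.13, 6.93 and 6.85 in metronidazole-treated larvae. Metronidazole 1 was thus the highest of the 6 arrays for mcm4, while it was the lowest for mcm6. The difference of mcm4 was 1.91, -0.60 and -0.78 in batch 1, 2 and 3, and its overall difference of 0.18 (standard error 0.49) was the only one above 0 among the replication genes. Without metronidazole 1 it was -0.24. The gene mcm7 was at 8.55, 8.25 and 8.18 in control and at 8.07, 8.28 and 8.42 in metronidazole-treated larvae. It ran the other way from the rest in control, being highest in control 1 and lowest in control 3, within a range of 0.38. Its difference was -0.07 (standard error 0.16, 95% interval -0.46 to 0.32).

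Of the 3 genes that load the helicase, cdc6 had the largest difference. The gene cdc6, whose protein brings the helicase to the origin, was at 5.25, 5.65 and 5.54 in control and at 5.23, 4.79 and 5.29 in metronidazole-treated larvae. Its difference of -0.38 (standard error 0.19, 95% interval -0.83 to 0.08) had the lowest unadjusted p of the 33 genes (limma adjusted p = 0.952), and only metronidazole 3 lay above the lowest control array. The gene cdt1, the partner of Cdc6 in loading, was at 3.49, 4.28 and 4.48 in control and between 3.87 and 3.92 in metronidazole-treated larvae. The gene orc1, the largest subunit of the origin recognition complex, had a difference of -0.06 (standard error 0.19), and its batch differences were 0.39, -0.04 and -0.53.

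Of the genes whose proteins activate the helicase, gins2 and cdc45 were nearly level across the metronidazole arrays. The gene gins2, a GINS subunit, was at 3.76, 4.45 and 4.72 in control and at 3.94, 3.90 and 3.94 in metronidazole-treated larvae. Its metronidazole arrays spanned 0.03 and its control arrays 0.96. The difference was -0.39 (standard error 0.25, 95% interval -0.98 to 0.21). The gene cdc45, whose protein joins GINS at the helicase, spanned 0.13 between the metronidazole arrays and 0.78 between the control arrays, with a difference of -0.14 (standard error 0.21). The gene gins1 was lower in each batch, by 0.12, 0.55 and 0.10 on the log2 scale, with a difference of -0.26 (standard error 0.22). As gins2, cdc45 and cdt1 were dimmer than most transcript clusters, background may have narrowed their ranges, which was not tested.

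At the replication fork, pcna, the gene of the sliding clamp, was at 8.02, 9.09 and 9.72 in control and at 8.40, 8.54 and 8.75 in metronidazole-treated larvae. All metronidazole arrays lay between control 1 and control 2. The difference was -0.38 (standard error 0.41, 95% interval -1.35 to 0.59), with 0.38, -0.55 and -0.97 in batch 1, 2 and 3. The gene pola1, the catalytic subunit of the polymerase that starts each new strand, was at 5.64, 6.89 and 7.33 in control and at 5.76, 6.06 and 6.46 in metronidazole-treated larvae. It followed pcna in that the metronidazole arrays filled the gap between control 1 and control 2, with a difference of -0.53 (standard error 0.44). The gene fen1, a nuclease that trims the fragments of the lagging strand, was lower in each batch, by 0.25, 0.42 and 0.35 on the log2 scale, with a difference of -0.34 (standard error 0.38).

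The enzymes that supply nucleotides were lower in the second and the third batch. The gene tyms, thymidylate synthase, which makes the thymidine nucleotide for DNA, was at 5.46, 7.23 and 7.85 in control and at 5.77, 6.14 and 6.39 in metronidazole-treated larvae. Its control range was 2.38 and its metronidazole range 0.61. The difference was -0.75 (standard error 0.58, 95% interval -2.13 to 0.64), with 0.31, -1.09 and -1.46 in the batches, and without control 1 it was -1.44 (standard error 0.27, limma adjusted p = 0.401). Control 1 was the lowest control array for tyms, so leaving it out could only lower this difference. The gene rrm1, the large subunit of ribonucleotide reductase, was at 7.01, 8.37 and 8.55 in control and at 7.03, 7.54 and 7.86 in metronidazole-treated larvae, with a difference of -0.50 (standard error 0.43). In both genes the metronidazole arrays lay above control 1 and below the other control arrays.

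**Figure D3:**
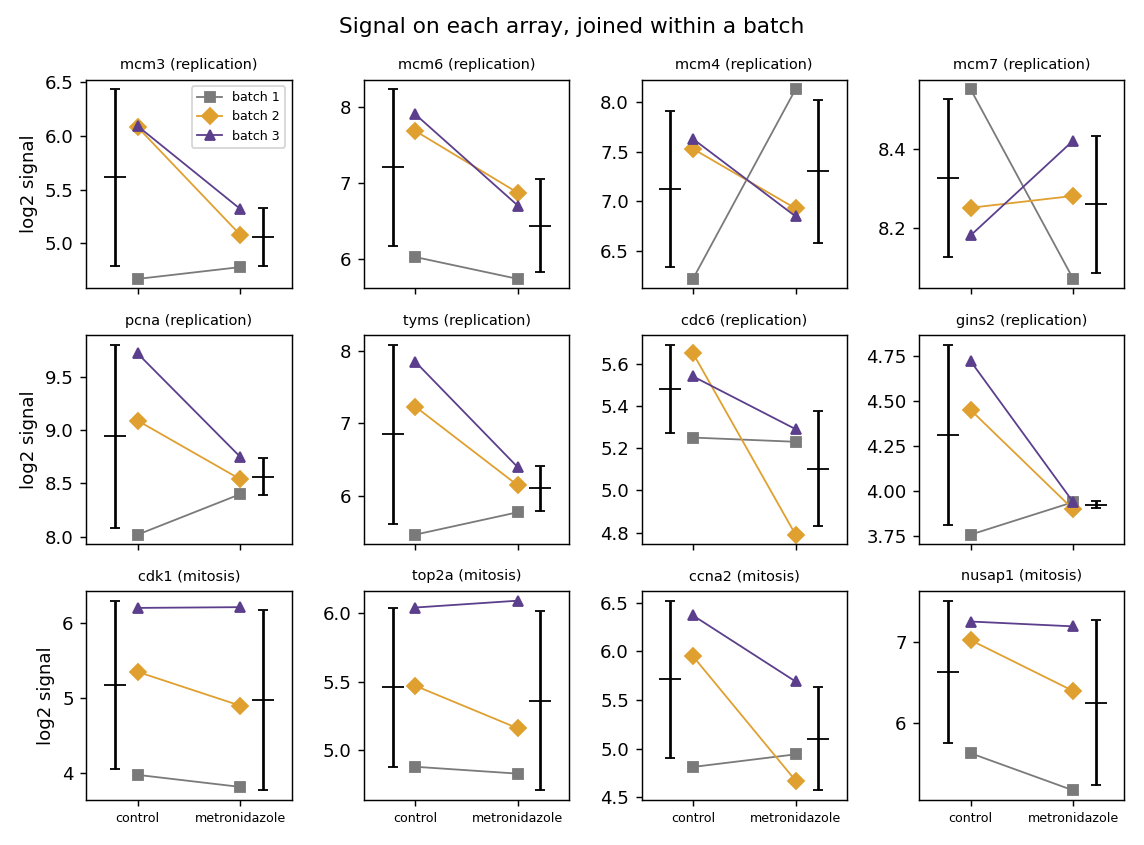
Log2 signal of 12 genes (each panel has its own scale) in control and metronidazole-treated larvae, with lines joining the arrays of a batch and bars for the mean ± SD of each group (n = 3). For pcna, tyms and gins2 batch 2 and 3 slope down and batch 1 slopes up, whereas for cdk1 and top2a the 3 batches lie at different heights and change by at most 0.45.

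For cdk1 and top2a, arrays with the same replicate number were close. The gene cdk1, the kinase that starts mitosis, was at 3.98, 5.35 and 6.20 in control and at 3.82, 4.90 and 6.21 in metronidazole-treated larvae. Its difference was -0.20 (standard error 0.74, 95% interval -1.97 to 1.57), and within the batches it was -0.16, -0.45 and 0.01. With the batch as a term the standard error of cdk1 was 0.16 in place of 0.74. The gene top2a, the topoisomerase that untangles sister chromatids, was at 4.88, 5.47 and 6.04 in control and at 4.83, 5.16 and 6.09 in metronidazole-treated larvae. Its difference was -0.10 (standard error 0.41, 95% interval -1.07 to 0.87), with -0.05, -0.30 and 0.05 within the batches.

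The cyclins were uneven. The gene ccna2, cyclin A2, which acts in S phase as well as at the entry into mitosis, was at 4.81, 5.95 and 6.37 in control and at 4.94, 4.67 and 5.69 in metronidazole-treated larvae. It had the largest difference downwards among the mitosis genes, -0.61 (standard error 0.45, 95% interval -1.68 to 0.45), with 0.12, -1.29 and -0.68 in the batches, and so was closer to the replication genes. The B cyclin gene ccnb1 was at 4.61, 4.99 and 5.71 in control and at 4.88, 4.83 and 5.25 in metronidazole-treated larvae, with a difference of -0.11 (standard error 0.29). The gene ccnb3, another B-type cyclin, was dim and varied by less than 0.4 within a group, with a difference of -0.01 (standard error 0.14). For the mitotic kinase genes plk1 and aurka, whose proteins act in spindle formation, the differences were -0.07 (standard error 0.44) and 0.00 (standard error 0.27).

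The chromosomal passenger complex corrects the attachment of chromosomes to the spindle. Of its genes, aurkb, the kinase, had a difference of 0.03 (standard error 0.30) and cdca8, borealin, -0.13 (standard error 0.18). The gene birc5a, survivin, was at 3.50, 4.15 and 4.41 in control and at 4.09, 4.07 and 4.31 in metronidazole-treated larvae. Its difference of 0.13 (standard error 0.24) was the largest upwards among the mitosis genes, and it came from the first batch (0.59, against -0.08 and -0.10 in batch 2 and 3). Without control 1 it was -0.12. The gene cdca8 was at 3.90, 4.07 and 4.27 in control and at 3.64, 4.1 and 4.1 in metronidazole-treated larvae, so that the groups overlapped.

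The spindle checkpoint and the exit from mitosis gave small differences. The gene bub1, a checkpoint kinase at the kinetochore, was at 5.83, 5.73 and 6.24 in control and at 5.42, 5.21 and 6.27 in metronidazole-treated larvae. Metronidazole 1 and 2 lay below all control arrays and metronidazole 3 above them. The difference was -0.30 (standard error 0.30), and without metronidazole 3 it was -0.62 (limma adjusted p = 0.978). As metronidazole 3 was the highest array of its group for bub1, leaving it out could only lower this difference. The gene ttk, the Mps1 kinase of the same checkpoint, had a difference of 0.06 (standard error 0.39). The gene cdc20, which activates the anaphase-promoting complex, had -0.20 (standard error 0.42). The gene ube2c, the ubiquitin-conjugating enzyme of that complex, was at 6.98, 7.34 and 7.33 in control and at 7.21, 6.96 and 7.20 in metronidazole-treated larvae, a difference of -0.09 (standard error 0.16).

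The 3 spindle genes were lowest on replicate 1 and highest on replicate 3 in both groups. The gene nusap1, whose protein binds spindle microtubules, was at 5.62, 7.02 and 7.25 in control and at 5.16, 6.39 and 7.19 in metronidazole-treated larvae. It was lower in each batch, by 0.46, 0.63 and 0.06 on the log2 scale, with a difference of -0.38 (standard error 0.61, 95% interval -1.84 to 1.08). The motor gene kif11, which pushes the spindle poles apart, was at 3.69, 4.57 and 5.07 in control and at 3.89, 4.35 and 4.94 in metronidazole-treated larvae, a difference of -0.05 (standard error 0.41). The motor gene kif23, needed at the midzone when the cell splits, had a difference of -0.13 (standard error 0.34). The gene chek1, the kinase that halts the cycle when replication stalls, was at 3.99, 4.55 and 4.72 in control and at 4.04, 3.92 and 4.59 in metronidazole-treated larvae, a difference of -0.24 (standard error 0.26).

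**Figure D4:**
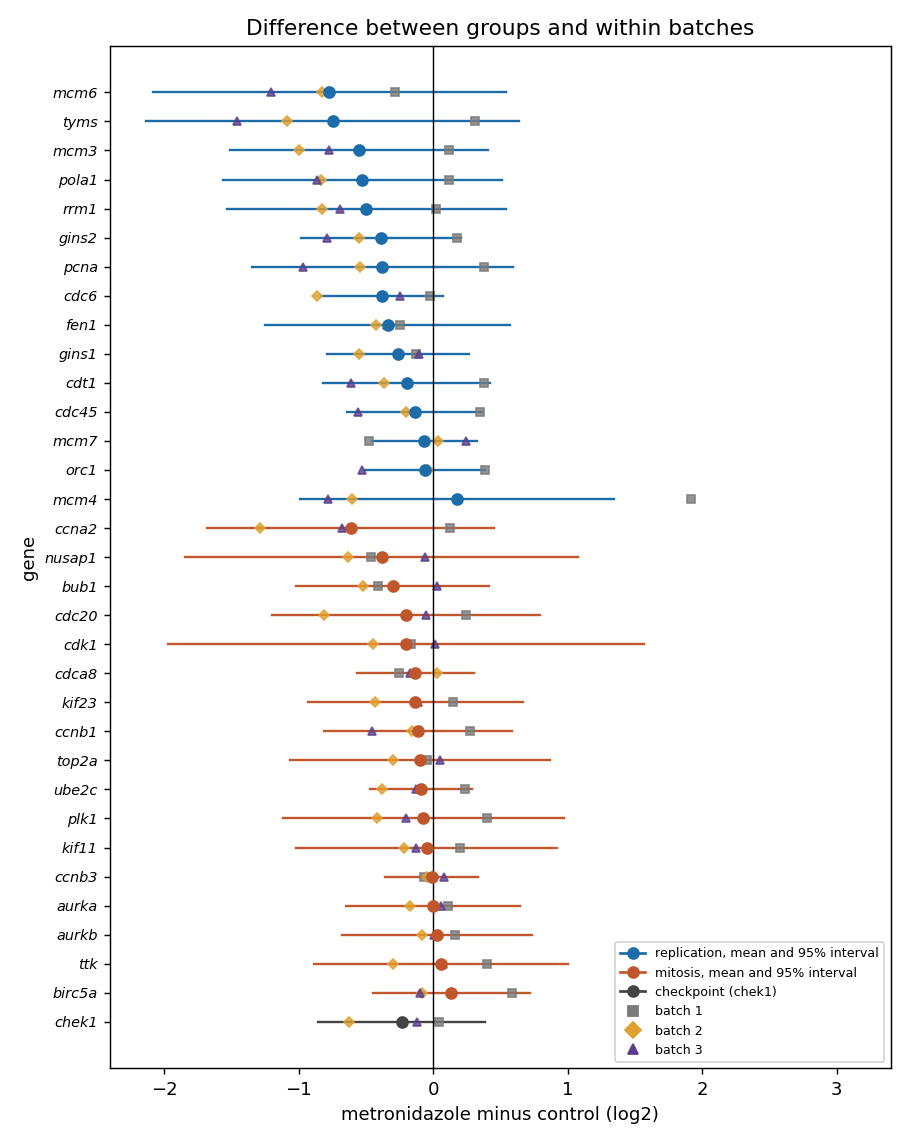
Metronidazole minus control on the log2 scale for each gene (dots, with the 95% interval from limma) and the difference within each of the 3 batches (squares, diamonds and triangles), sorted within replication, mitosis and checkpoint. All 33 intervals include 0, and for most replication genes batch 2 and 3 lie left of batch 1.

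Among other genes of the same processes, the replication and the mitosis genes each had a median that was lower by less. Their single lists differed. Of 49 further replication genes, 44 were measured and 36 had differences below 0, against 43.3% of all transcript clusters and 46.5% of all genes. The median of the 44 genes was -0.12, and in the batches it was 0.14, -0.30 and -0.29. Limma gave 1 of them lower and 0 higher at an unadjusted p under 0.05, near the background of 2.57% of transcript clusters and 4.27% of genes lower, and 0 at the adjusted p. That gene was rnaseh2a, which encodes a subunit of an RNase that removes RNA from DNA, with 6.67, 7.48 and 7.15 in control, 6.34, 6.58 and 6.70 in metronidazole-treated larvae and a difference of -0.56 (standard error 0.23, limma adjusted p = 0.952). The nucleotide supply list had the lowest median of these lists (-0.46 over 3 genes). Its gene tk1, a thymidine kinase, was at 6.37, 8.76 and 9.09 in control and at 6.60, 7.77 and 8.41 in metronidazole-treated larvae, so control 1 stood below the other control arrays, as it did for tyms. The median was -0.09 for the 19 genes of polymerases, clamp loaders and ligase, -0.11 for 14 origin and helicase factors and -0.19 for 8 genes of chromatin assembly. The groups did not overlap for 2 of the 44 genes, rfc2 and gmnn, both lower, against 4.15% of all transcript clusters lower and 5.80% higher.

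Of 66 further mitosis genes, 55 were measured and 37 had differences below 0, against 43.3% of all transcript clusters and 46.5% of all genes. The median of the 55 genes was -0.07, and in the batches it was 0.11, -0.27 and -0.03. Limma gave 0 of them in either direction at an unadjusted p under 0.05. The background was 2.57% lower and 2.22% higher among all transcript clusters, and 4.27% and 1.68% among all genes. Control 1 was the lowest and control 3 the highest control array for 41 of the 55 genes, and for 25 of the 44 further replication genes. The background was 17.2% of all transcript clusters and 22.3% of all genes. The medians ran from -0.15 for 18 kinetochore and checkpoint genes and -0.13 for 12 genes of condensin, cohesin and separase to 0.00 for 17 genes of spindle motors and cytokinesis and 0.14 for 8 mitotic kinases and their regulators. The gene nek2, a centrosome kinase, was between 4.66 and 4.89 in control and between 4.96 and 5.01 in metronidazole-treated larvae, a difference of 0.21 (standard error 0.12). The groups did not overlap for 2 of the 55 genes that were higher, nek2 and ckap5, a microtubule polymerase gene (8.20 to 8.47 in control and 8.50 to 8.62 in metronidazole-treated larvae), and for 1 that was lower, rad21a, against 5.80% and 4.15% of all transcript clusters. The gene rad21a, a cohesin subunit, was between 8.38 and 8.45 in control and between 7.84 and 8.36 in metronidazole-treated larvae, with a difference of -0.37 (standard error 0.17, limma adjusted p = 0.952).

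Among the regulators, differences were mostly below 0 in the E2F, RB and G1 to S cyclin list. This list does not separate genes that promote replication from genes that restrain it, and e2f1 was not among the measured genes. Of 22 measured E2F, RB and G1 to S cyclin genes, 19 had differences below 0, against 43.3% of all transcript clusters and 46.5% of all genes. The median of the 22 genes was -0.17, and in the batches it was -0.11, -0.16 and -0.22. Among these, 1 gene passed an unadjusted p under 0.05 (background 2.57% of transcript clusters lower), cdk4, the partner of the D cyclins, which was at 8.30, 8.10 and 7.43 in control and at 7.02, 7.47 and 7.35 in metronidazole-treated larvae, a difference of -0.66 (standard error 0.25, limma adjusted p = 0.952). The gene ccne1, cyclin E1, had a difference of -0.48 (standard error 0.27). The 6 measured genes of MuvB, MYB and FOXM1 had a median of -0.09, with 3 below 0. For 1 of these 6, lin9, the groups did not overlap and metronidazole was lower, against 4.15% of all transcript clusters.

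Genes of cell cycle arrest and the p53 response had differences above 0 in 10 of 11 cases, with a median of 0.25. None passed an unadjusted p under 0.05 (limma, 0 lower and 0 higher). This is near the background of 2.57% lower and 2.22% higher among all transcript clusters (4.27% and 1.68% among all genes). Their batch medians were 0.55, 0.08 and 0.11, against -0.01, 0.04 and 0.06 over all transcript clusters. In the batches 1, 4 and 5 of the 11 genes were lower, against 51.6%, 45.4% and 42.7% of all transcript clusters. The rise thus lay mainly in the first batch. With all arrays, 43.3% of all transcript clusters were below 0 and their median was 0.03. The gene cdkn1bb, an inhibitor of cyclin-dependent kinases, was at 9.65, 9.25 and 9.27 in control and at 10.32, 9.47 and 9.62 in metronidazole-treated larvae, a difference of 0.41 (standard error 0.25, limma adjusted p = 0.952). The gene cdkn1a, which encodes the inhibitor p21, was at 8.57, 8.34 and 6.58 in control and at 8.66, 8.36 and 8.43 in metronidazole-treated larvae. Its difference of 0.65 (standard error 0.50) thus came from control 3 alone. The list did not share this low value, as control 3 was the highest control array for 4 of the 11 genes. Among these were cdkn2c (6.62) and btg2 (10.16). A link between the arrest genes and the replication and mitosis signals was not tested.

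**Figure D5:**
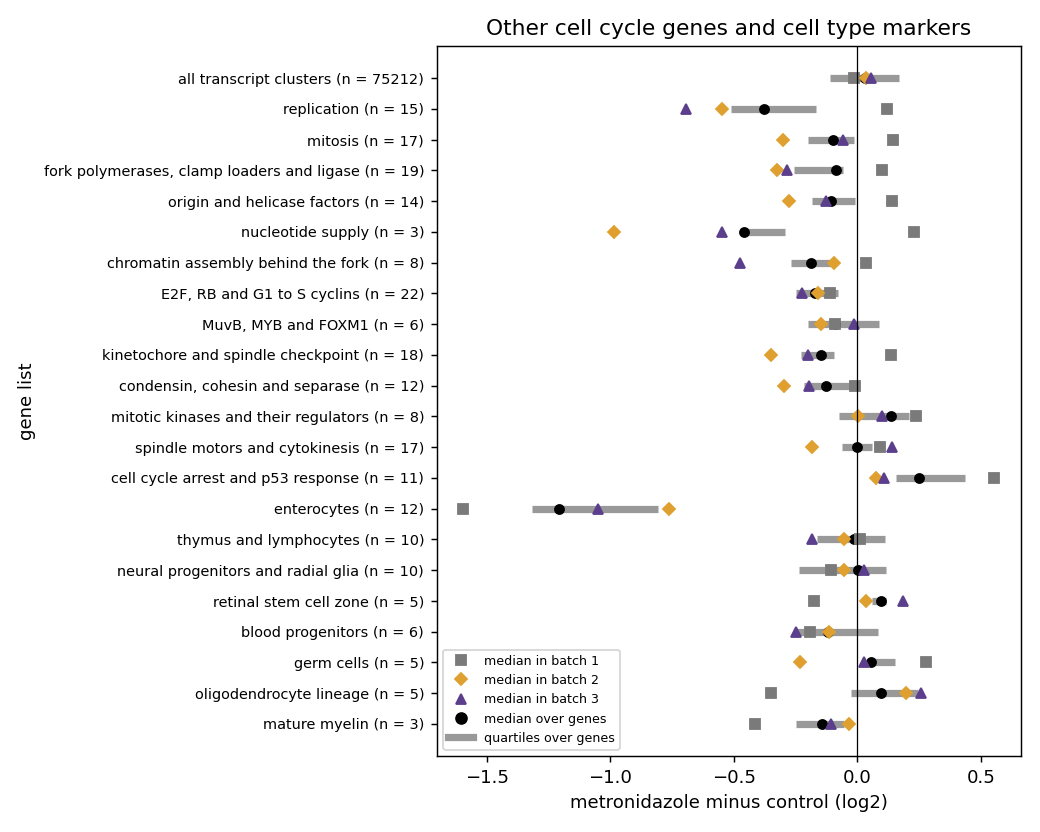
Median difference between metronidazole and control on the log2 scale for all transcript clusters, the replication and mitosis genes, the other cell cycle lists and lists of cell type markers (dots), with quartiles over genes (bars) and the median within each batch (squares, diamonds and triangles). The enterocyte markers lie lowest with a median of -1.21. The arrest and p53 list has batch medians of 0.55, 0.08 and 0.11, against -0.01, 0.04 and 0.06 for all transcript clusters.

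Markers of tissues that hold dividing cells were looked at beside these values. All 12 measured enterocyte markers, genes of the absorptive cells of the gut lining, had differences below 0, with a median of -1.21. Among all transcript clusters 43.3% were below 0. Limma gave 7 of the markers lower at an unadjusted p under 0.05, where the background was 2.57% of transcript clusters and 4.27% of genes, and 0 at the adjusted p. These markers were chosen with earlier results of these data known, so the counts are not an independent result. Their centred medians were 0.20, 0.78 and 0.66 in control 1, 2 and 3 and -1.30, -0.07 and -0.36 in metronidazole 1, 2 and 3, and the batch medians were -1.59, -0.76 and -1.05. The first batch was thus the lowest for the enterocyte markers and the highest for the replication genes. The neural progenitor and radial glia markers (10 genes) had a median difference of 0.00 and centred medians of -0.33, 0.15 and 0.08 in control and -0.44, 0.06 and 0.19 in metronidazole-treated larvae, so that replicate 1 was low in both groups. The median difference was 0.10 for 5 markers of the retinal stem cell zone, -0.12 for 6 of blood progenitors, -0.01 for 10 of thymus and lymphocytes and 0.06 for 5 of germ cells. For 5 genes of the oligodendrocyte lineage it was 0.10 and for 3 of mature myelin -0.14. The part of any of these cell types in the levels of the replication and mitosis genes was not tested.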

How the data were processed

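RNA of whole larvae was measured on Affymetrix Zebrafish Gene 1.0 ST arrays, 3 per group. The authors deposited log2 signals for 75212 transcript clusters. The labels name MAS5 without a role, and how the values were summarized and scaled is not given in the sources used here. Symbols were taken from the annotation of the platform (20806 transcript clusters with 1 symbol, 855 with several, 53551 with none). The functions lmFit and eBayes of limma 3.58.1 (R 4.3.3, two-sided tests, 4 residual and 2.69 prior degrees of freedom) compared metronidazole with control over all transcript clusters, with a threshold of 0.05. The fit was also run on simulated independent noise with known changes added. That noise had no batch effect and no genes that move together, so it differs from these data. Lists are described by counts and medians, without a test. The members and lists were chosen with earlier results of these data known, and so were the genes given in full: pcna, top2a and cdk1, the 5 lowest unadjusted p in each group, the largest difference in each direction, and up to 2 genes of each other list. Other members are given more briefly.

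The deviations of same-numbered arrays from their group means correlated at 0.241, 0.148 and 0.127, and those of other pairs at -0.171 to 0.051. With the study's statement of 3 batches, the number was taken to mark the batch. The reported test has no batch term. Alternatives were the methods' t-test with equal variances, quantile normalization, median centring, a filter on dim transcript clusters, a batch term, an intensity trend, array weights, 1 transcript cluster per gene or the mean of several, each array left out, and other groupings of top2a and chek1. Promoter and protein sequences were not analysed here. The number of arrays limits the precision. Plots were made in Python 3.11.15 with matplotlib 3.10.9.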

Additional observations from a re-analysis of the deposited data

How the results depend on the processing

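The count of 0 genes at the adjusted p held under every alternative tried. At an unadjusted p under 0.05 the lower genes numbered 1 with the batch as a term (replicate block), and 0 to 9 with an array left out. The 9 came without control 1, where 4.36% of all transcript clusters were lower at that p. The higher genes stayed at 0. The count of genes whose groups did not overlap was 0 to 13 with an array left out. The 13, all lower, came without control 1, where the background was 10.6% lower and 16.9% higher. As control 1 was the lowest control array for 31 of the 33 genes, the counts without it are not an independent result. The median of the replication genes stayed below 0 (-0.66 without control 1 to -0.15 without control 3). That of the mitosis genes ran from -0.36 to 0.19, above 0 without control 3 (0.19) or metronidazole 1 (0.13) and with array weights (0.02). The replication median minus the mitosis median was -0.28, and lay between -0.40 and -0.15 with an array left out and between -0.42 and -0.21 otherwise. A grouping without mcm4, chosen after seeing the data, gave -0.28.

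Among the genes given in full, the direction turned with array weights for cdk1 (0.14), top2a (0.13) and mcm4 (-0.24). With an array left out it turned for these and for other genes given in full, with ranges of -0.82 to 0.38 for cdk1, -0.46 to 0.19 for top2a, -0.28 to 0.43 for mcm4, -0.84 to 0.0093 for pcna, -0.89 to 0.16 for nusap1, -0.22 to 0.017 for cdca8 and -0.12 to 0.33 for birc5a. The cause was not tested. Apart from mcm6 at an unadjusted p, the batch term changed no call. Where genes are dim, signal over background limits what can be seen.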

Other observations

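The transcript cluster that the platform assigns to both mcm5 and hmox1a, and which was therefore kept out of the 33 genes, was at 4.86, 6.39 and 6.49 in control 1, 2 and 3 and at 4.99, 5.66 and 5.74 in metronidazole 1, 2 and 3, a difference of -0.45 (standard error 0.46, limma adjusted p = 0.962). Which of the genes gave this signal cannot be told from the values.

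On metronidazole 1, the gene gadd45ba, a stress-response gene of the arrest list, stood at 10.48, against 8.57 to 8.91 on the control arrays and 8.67 and 8.77 on metronidazole 3 and 2. The genes gadd45aa (7.14) and gadd45bb (6.73) were also highest there. These genes were singled out after their values were seen.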
